A study of Mus musculus with 2 samples.

Results

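The cells described here are C1q-positive cells, mostly adrenal gland macrophages (AGMs), with transcripts of at least 1 of Lyve1, Folr2, Cbr2 and Fcna and little Retnla. They were picked from droplet RNA counts by raw unique molecular identifiers (UMIs), each UMI standing for 1 captured transcript. A member had at least 5 UMIs over the complement genes C1qa, C1qb and C1qc, at least 3 UMIs over Lyve1, Folr2, Cbr2 and Fcna, fewer than 5 Retnla UMIs, and no UMI of Cd79a (B cells) or Cd3e (T cells). Barcodes with fewer than 200 genes or with more than 15% of UMIs from mitochondrial genes were left out first. Of 6319 cells that passed, 103 were members, 35 of 3817 in the female library and 68 of 2502 in the male library. The study sorted living CD45+ cells, the immune cells, out of the adrenals of C57Bl/6 mice aged 7 weeks and made 1 library from females and 1 from males. Neither library came from mutant or treated animals, and how many animals were pooled in a library was not given in the sources used here. With 1 library per sex there was no replicate, so no test between sexes was possible and all intervals below are 95% intervals of counting error only. A difference between the libraries may be a difference between sexes or between preparations, and these cannot be told apart.

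Lyve1 encodes a receptor for hyaluronan, Folr2 a folate receptor, Cbr2 a carbonyl reductase and Fcna a ficolin that binds sugars on microbes. Macrophages with Lyve1 and Folr2 are found in many tissues, often beside vessels, and are known for scavenger receptors, for the uptake of dying cells and for long residence. Timd4, a receptor for phosphatidylserine on dying cells, is widely used as a mark of such long-lived macrophages, while Ccr2 marks cells close to blood monocytes. MHC class II molecules present peptides to helper T cells and divide macrophages of many organs into low and high subsets.

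The stretches before the start of 4 genes are shown. Folr2 was chosen as the gene seen in most members among Lyve1, Folr2, Cbr2 and Fcna. The other genes were higher in members in both libraries: Pf4, a platelet-type chemokine, Mrc1, the mannose receptor, and Timd4. Each is the 250 bases before the RefSeq start (GRCm38.p6), 5′ to 3′, at chr7:101857191-101857440 on the minus strand for Folr2, chr5:90772185-90772434 for Pf4, chr2:14229164-14229413 for Mrc1 and chr11:46810549-46810798 for Timd4, the last 3 on the plus strand. Capitals mark AGGAAGT, a motif of ETS factors such as PU.1, and TGCTGA, the core of the MAF recognition element, on either strand.
Folr2: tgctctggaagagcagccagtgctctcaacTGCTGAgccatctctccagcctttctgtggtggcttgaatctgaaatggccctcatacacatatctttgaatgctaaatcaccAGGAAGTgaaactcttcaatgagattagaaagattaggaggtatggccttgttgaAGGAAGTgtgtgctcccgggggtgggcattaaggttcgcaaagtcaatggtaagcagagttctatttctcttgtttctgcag
Pf4: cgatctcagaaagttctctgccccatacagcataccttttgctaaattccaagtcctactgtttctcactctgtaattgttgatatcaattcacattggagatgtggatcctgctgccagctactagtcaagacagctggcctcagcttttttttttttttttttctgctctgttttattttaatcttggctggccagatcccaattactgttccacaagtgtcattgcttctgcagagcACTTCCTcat
Mrc1: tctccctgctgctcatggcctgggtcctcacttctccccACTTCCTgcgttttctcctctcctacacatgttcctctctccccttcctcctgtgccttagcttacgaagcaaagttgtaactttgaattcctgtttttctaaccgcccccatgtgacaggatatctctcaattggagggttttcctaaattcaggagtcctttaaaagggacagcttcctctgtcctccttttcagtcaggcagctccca
Timd4: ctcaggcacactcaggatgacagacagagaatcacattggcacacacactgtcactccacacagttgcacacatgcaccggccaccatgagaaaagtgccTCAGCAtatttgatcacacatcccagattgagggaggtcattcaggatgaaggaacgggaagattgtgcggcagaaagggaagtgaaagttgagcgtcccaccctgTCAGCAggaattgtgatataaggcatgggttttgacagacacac
AGGAAGT occurred in 7.80% of 27025 such windows over all genes and TGCTGA in 15.8%. Of Lyve1, Folr2, Cbr2, Fcna and the 25 genes named as higher below, 19 had an entry. Of these 19, 4 held AGGAAGT (Fcna, Folr2, Ltc4s and Pf4) and 8 held TGCTGA (Cd5l, Clec4f, Ednrb, Fcna, Folr2, Saa3, Slpi and Timd4). Of the latter, Cd5l, Clec4f, Saa3 and Slpi came from 14 members with other programmes, described below. With so few windows the intervals were wide, 6.05 to 45.6% and 20.3 to 66.5%. Of the 15 genes named as lower, 10 had an entry and 2 held each motif. A match is a string of letters and says nothing of a bound factor.

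The members were shallower than the cells around them. They held a median of 2217 UMIs per cell in the female library and 2158.5 in the male, against 3876 and 2832 in the other cells with 5 or more C1q UMIs (914 female and 830 male cells, called the other C1q cells). The median share of mitochondrial UMIs was 5.54% and 6.02% in members against 3.13% and 2.96% in other C1q cells. The libraries held 16218309 and 9512670 UMIs over 3963 and 2685 barcodes, and shared 2 barcodes, none of them a member. The rule gene C1qa stood, as a description, at 4494 and 5324 CPM (the UMIs of a gene over all UMIs of the same cells, scaled as usual for CPM) in female and male members against 4450 and 4876 in other C1q cells.

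Members made up 3.69% of female C1q cells (2.58 to 5.09%) and 7.57% of male C1q cells (5.93 to 9.50%). The female share was 3.88 points lower (difference -3.88, interval -6.06 to -1.79). Among all cells the shares were 0.917% and 2.72%. The difference depended on which barcodes were kept. With a mitochondrial ceiling of 5% in place of 15%, 14 female and 25 male members remained and the difference was -1.80 points (-3.65 to -0.0922). Leaving out barcodes with UMIs of other lineages or very deep ones kept 412 of 949 female and 499 of 898 male C1q cells. Of these, 17 and 27 were members, and the difference was -1.28 points (-4.09 to 1.62). With a ceiling of 1.2%, 1 of 57 female and 0 of 83 male C1q cells were members, too few to compare.

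Values near the thresholds are given as a description. Within the other limits, 694 female and 625 male C1q cells had no UMI of the 4 genes, 38 and 43 had 1, 12 and 10 had 2, and 8 and 6 had 3. The cells just outside the limit were thus few against those at 0, and somewhat more than those just inside. The median sum of members was 6 in females and 8 in males. The Retnla limit took away far more: of 76 female and 147 male C1q cells with a sum of 3 or more, 35 (46.1%) and 77 (52.4%) had 5 or more Retnla UMIs. These Retnla-high cells, which share the rule genes with the members, are compared with them below. A further 6 female and 2 male cells were left out for Cd79a or Cd3e alone.

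**Figure D1:**
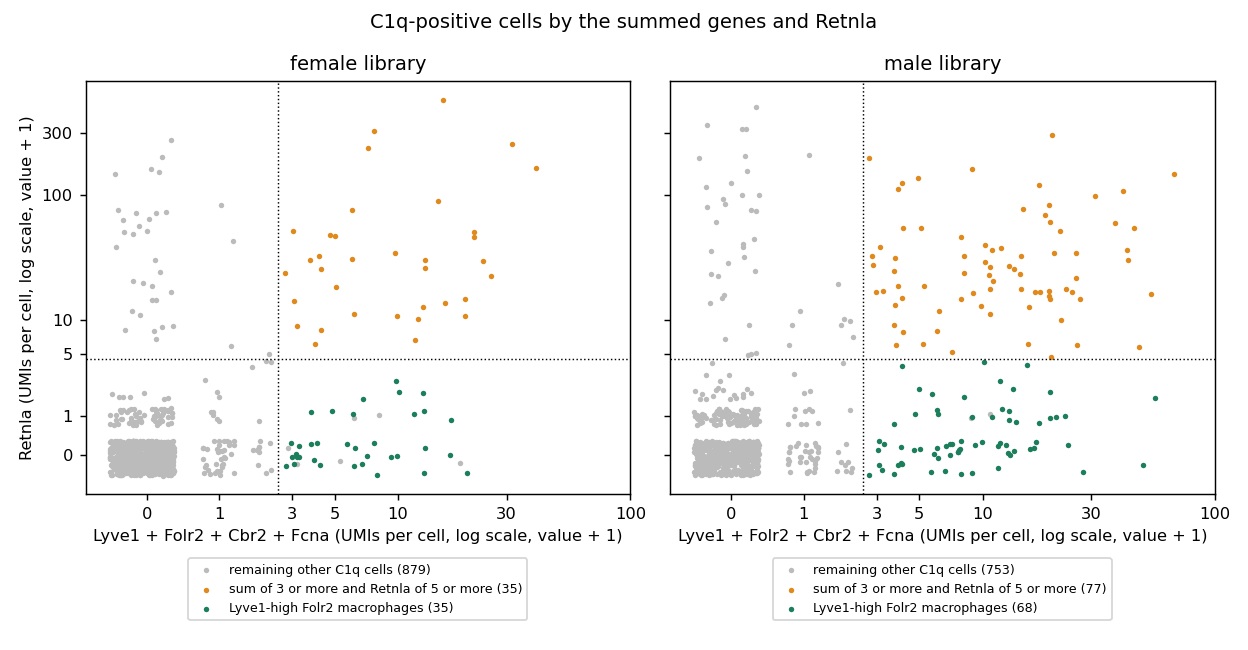
Each point is a C1q cell of the female (left) or male (right) library, placed by its UMIs over Lyve1, Folr2, Cbr2 and Fcna (x axis, log scale of value + 1) and by its Retnla UMIs (y axis, same scale), with jitter. Dotted lines mark the limits of the rule, and the points right of the sum limit fall about evenly below (members, 35 and 68) and above (35 and 77) the Retnla limit.

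The name Lyve1-high held for part of the members only. Positions are from the GRCm38 annotation. Folr2 (chr7:101839988-101857194, minus strand) was the most widely detected of the 4 genes, in 26 of 35 female and 63 of 68 male members. Lyve1 (chr7:110850607-110863239, minus strand) had a UMI in 15 and 41 members, Cbr2 (chr11:120729489-120732114, minus strand) in 18 and 46 and Fcna (chr2:25624666-25628030, minus strand) in 18 and 35. All 4 genes were seen in 2 female and 18 male members, and a single one in 7 and 7. General macrophage genes were present: Csf1r, the receptor for the macrophage growth factor, was detected in 32 and 65 members and Lyz2, lysozyme, in 33 and 68. Itgax, which encodes CD11c, was close to absent, with 2 UMIs in the female and 0 in the male members, at least 13.4-fold lower than in other C1q cells of the male library when the 0 is set to 3 UMIs over the class.

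Outside the 10 rule genes, 9126 genes had at least 20 UMIs in each library over the C1q cells. Of these, 438 (4.80%) were at least 2-fold higher in members than in other C1q cells in both libraries and 581 (6.37%) at least 2-fold lower. Of the genes called lower, 381 had 0 member UMIs in a library, where so few cells cannot show the size of the ratio, so the count of lower genes is an upper limit. For genes near the UMI limit, a few member UMIs are enough for a call of higher, so that count can hold weakly supported genes. Here higher and lower mean past 2-fold in both libraries. Against this background, 14 of the 16 genes of a list of long-lived tissue-resident macrophages were higher and none was lower. Of the 14, Vsig4 passed the UMI limit in the male library only through the members, so its call could not come out otherwise. The median ratio of the list was 4.89 in the female and 5.10 in the male library, where the median over all genes was 0.995 and 0.995. The list was chosen with earlier results of these data known, so its count is a description.

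Several scavenger receptors were higher. Cd163 (chr6:124304656-124330527, plus strand), the receptor that clears haemoglobin bound to haptoglobin, stood at 378 CPM in female members (45 UMIs in 20 cells) and 49.0 in other C1q cells, a ratio of 7.71 (5.46 to 10.7). In the male library it stood at 665 CPM (126 UMIs in 44 cells) against 62.8, a ratio of 10.6 (8.41 to 13.3). Mrc1 (chr2:14229392-14332057, plus strand) was 3.45-fold and 4.54-fold higher. The C-type lectins Clec10a and Mgl2, which bind galactose and N-acetylgalactosamine, were 8.14-fold and 5.68-fold higher in females and 5.92-fold and 4.26-fold higher in males. Cd36, a receptor for oxidised lipid, was 2.29-fold and 2.49-fold higher. In all, 7 of 13 measured scavenger and endocytic receptors were higher. Cd5l, counted among the 7, had UMIs in only 4 of 830 other C1q cells of the male library. Its call thus rested on the members, in the Prg4 and Clec4f cells described below, and is not read. Clec4n (Dectin-2), which senses fungal mannans, was lower with 5 UMIs in the female and 7 in the male members.

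Of the 4 measured genes of the Cd209 lectin family, relatives of DC-SIGN, 3 were higher: Cd209d, Cd209f and Cd209g. Cd209f (chr8:4102787-4105835, minus strand) had 30 UMIs in 5 of 35 female members, 27 of them in 2 cells, and 90 UMIs in 30 of 68 male members. It stood at 252 and 475 CPM against 17.1 and 63.4 in other C1q cells. Cd209d was seen in 2 female and 15 male members, so few cells carry the female values. Cd209b had 46 UMIs in 14 male members, 12.4-fold above other C1q cells, and 6 UMIs in 5 female members, too few over that library to be counted. No member had a UMI of Cd209c or Cd209e.

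Among secreted products, Pf4 (chr5:90772435-90773383, plus strand) stood at 2016 and 3808 CPM in female and male members against 355 and 524 in other C1q cells, ratios of 5.68 (4.93 to 6.51) and 7.27 (6.65 to 7.94). It was detected in 25 of 35 and 62 of 68 members. Ccl24, an attractant of eosinophils, was 17.1-fold and 7.96-fold higher, and Ccl6 3.66-fold and 2.28-fold higher. Cxcl12, which holds CXCR4-bearing cells, was 11.9-fold and 6.45-fold higher from 11 and 22 UMIs. In contrast Ccl3, Ccl4, Cxcl14 and Cxcl16 were lower. Cxcl9 and Cxcl10 had 1 and 0 UMIs over all members, too few for a call. Of 15 measured chemokines 5 were higher and 6 lower, with Cxcl9 and Cxcl10 counted among the lower ones. Without the Prg4 and Clec4f cells described below 4 were higher and 5 lower, with Cxcl2 and Cxcl16 no longer called. Ccl5, which attracts T cells, had 9 UMIs in each library's members, with ratios of 0.0700 and 0.0978. Without doublet-like barcodes the female ratio of Ccl5 was 1.23, so its lower level was not kept. Il1b, a cytokine of inflammation, had 0 female and 6 male UMIs.

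F13a1 (chr13:36867178-37050244, minus strand), the A chain of coagulation factor XIII, stood at 823 CPM in female members (98 UMIs in 24 cells) against 154, and at 1336 CPM in male members (253 UMIs in 54 cells) against 239. Gas6, the bridge between dying cells and the receptors Axl and Mertk, was 9.79-fold and 5.77-fold higher. The related Pros1 was 4.30-fold and 4.44-fold higher, and Mfge8, a bridge to integrins, 4.48-fold and 6.42-fold higher. Of 10 measured genes of efferocytosis, the uptake of dying cells, 5 were higher and 1 (Cd300lf) lower. Selenop, the plasma selenium carrier, was 4.44-fold and 5.14-fold higher, Igf1 3.17-fold and 3.86-fold, and Pltp, which moves phospholipid between lipoproteins, 7.44-fold and 4.51-fold.

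Among complement genes, Cfp, the properdin that sustains the alternative pathway, was 10.9-fold and 4.54-fold higher, and C4b 37.0-fold and 9.08-fold. Hmox1, which degrades heme, was 4.14-fold and 2.83-fold higher, and 3 of 10 iron and heme genes were higher. Without the Prg4 and Clec4f cells described below 2 were higher, with Slc40a1 no longer called. Further genes among the 25 with the highest ratios by rule were Ltc4s (leukotriene C4 synthase), Fxyd2 (a subunit of the sodium pump), Fgfr1, Ednrb (an endothelin receptor), Emp1 and Pla2g2d, with ratios from 8.91 to 27.4 in the female and 6.28 to 15.3 in the male library.

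Among 10 genes linked to microglia, Cx3cr1 and Tmem119 were lower. Cx3cr1, the fractalkine receptor, stood at 218 and 116 CPM in members against 708 and 773 in other C1q cells, ratios of 0.308 (0.201 to 0.453) and 0.150 (0.0940 to 0.228). Tmem119 had 4 UMIs in 2 female members and 0 in male members. Fcrls, of the same list, was the reverse at 2.81-fold and 3.87-fold higher. Itgax, Tgfbr1 (a TGF-beta receptor), Cd52, Tmsb10, Scimp, Basp1, Rgs1, Glipr1, Bcl2a1a, Mmp13 and AW112010 were the other genes named as lower outside the cytotoxic gene Gzma. Their ratios ran from 0.0748 to 0.389 in females and, with Itgax at 0 UMIs, up to 0.386 in males. Lower T cell and B cell genes can follow from the Cd3e and Cd79a limits, which the other C1q cells did not have to meet, so no count of them is read. Gzma had 0 UMIs in the female and 7 in the male members, at least 18.1-fold lower in females with 3 UMIs as the floor. Without doublet-like barcodes its male ratio was 8.08. Gzma is among the genes that define those barcodes, so that ratio cannot decide on the lower level.

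Of 18 transcription factors, 3 were higher and 1 lower. Klf2, a factor of quiescence and vessels, stood at 680 and 650 CPM against 167 and 140 in other C1q cells. Tcf4 was 2.00-fold and 2.22-fold higher. Id3, an inhibitor of helix-loop-helix factors, rested on 5 female and 14 male UMIs. Its call was lost without the Prg4 and Clec4f cells described below. There 3 factors were higher, with Maf in place of Id3, and 2 lower, with Id2 added. Runx3, known from cytotoxic lymphocytes and dendritic cells, was lower with 10 UMIs in 4 female and 1 UMI in 1 male member. None of 9 lysosomal proteases and none of 6 measured genes of the steroid response was higher or lower. Of the 10 MHC class II genes none was higher, H2-Oa had 0 UMIs, from which no call is read, and the median ratios were 0.669 and 0.551.

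**Figure D2:**
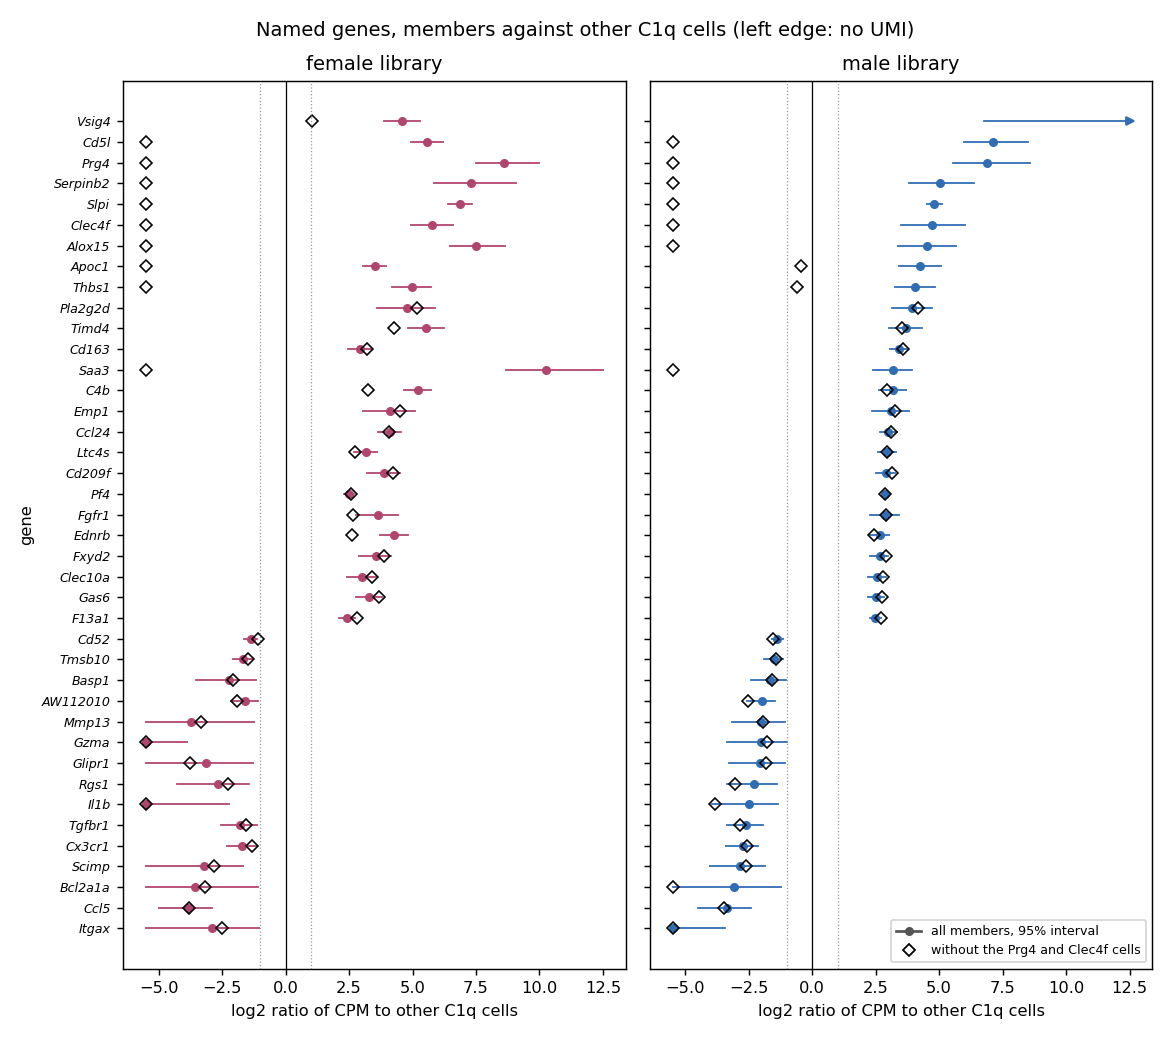
Log2 ratio of CPM in members to other C1q cells (x axis) for the 25 genes named as higher and the 15 named as lower (y axis), in the female (left) and male (right) library, where points with lines are all members with 95% counting intervals and open diamonds leave out the 14 Prg4 and Clec4f cells described below (left edge for no UMI, dotted lines at 2-fold, arrow for Vsig4 with no UMI in male other C1q cells). Without the 14 cells, Alox15, Apoc1, Cd5l, Clec4f, Prg4, Saa3, Serpinb2, Slpi and Thbs1 were at 0 UMIs in the female library, while Cd163 stayed at 9.24-fold and 11.8-fold.

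The members were not 1 kind of cell. After the values had been seen, 14 members were set apart because genes of the rank list came from them alone. A first group, called Prg4 cells, had 3 or more UMIs over Prg4 (lubricin), Saa3 (an acute-phase protein) and Alox15 (a lipoxygenase), and held 3 female and 1 male cell. A second, called Clec4f cells, was picked from the others and had 3 or more UMIs over Clec4f (a lectin best known from Kupffer cells of the liver), Vsig4 (a complement receptor) and Cd5l (a secreted scavenger protein), and held 5 female and 5 male cells. No cell type is assigned to either. The 89 remaining members, 27 female and 62 male, had no UMI of Prg4, Saa3, Alox15, Clec4f or Cd5l.

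The 4 Prg4 cells were deep, with 5595 to 10754 UMIs in the female cells and 11377 in the male cell. Without doublet-like barcodes, which carried UMIs of other lineages or were very deep, members had 0 UMIs of Prg4, Alox15 and Slpi. Whether the Prg4 cells were doublets was not tested. They held all 77 female and 36 male UMIs of Prg4 found in members, and all 102 and 24 of Saa3 and 50 and 18 of Alox15. These genes were used to pick the cells, so their place in them is no result. Slpi, a protease inhibitor, had 159 female and 253 male UMIs, all in these cells. So had Serpinb2, with 22 and 18, and Tgfb2, with 35 and 4. Fibronectin (Fn1) had 272 UMIs in the 3 female and 189 in the male Prg4 cell, and 1 UMI in all 89 remaining members. Gata6, a transcription factor known from macrophages of serous cavities, had 7 and 2 UMIs in them and 0 in the remaining members. Their UMIs of the 4 genes of the sum were those of Fcna, 9 and 8, and 1 of Cbr2, with none of Lyve1 or Folr2.

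The 10 Clec4f cells carried Folr2 (9 female and 15 male UMIs) and Fcna (12 and 3), but 1 Lyve1 UMI in all. Clec4f had 33 and 16 UMIs, all of the members' UMIs of this gene, and Cd5l 33 and 52. Vsig4 had 17 and 26 UMIs, and no male C1q cell outside the members had a Vsig4 UMI. Clec4f, Vsig4 and Cd5l were used to pick these cells, so their levels in them are no result. The Prg4 cells shared Cd5l, with 19 and 7 UMIs, but not Clec4f. Slc40a1 (ferroportin, the iron exporter) was seen in 5 of 5 cells of each library, with 29 and 26 UMIs. Apoc1, an apolipoprotein, had 25 and 29 UMIs, against 0 and 1 in the remaining members. Marco, a scavenger receptor, had 8 UMIs in 3 male cells and 0 in the female ones. The female Clec4f cells were shallow, with a median of 874 UMIs, and the male ones held 2954. Among the other C1q cells, 11 female and 1 male cell met the same limit, and 1 and 1 met that of the Prg4 cells.

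**Figure D3:**
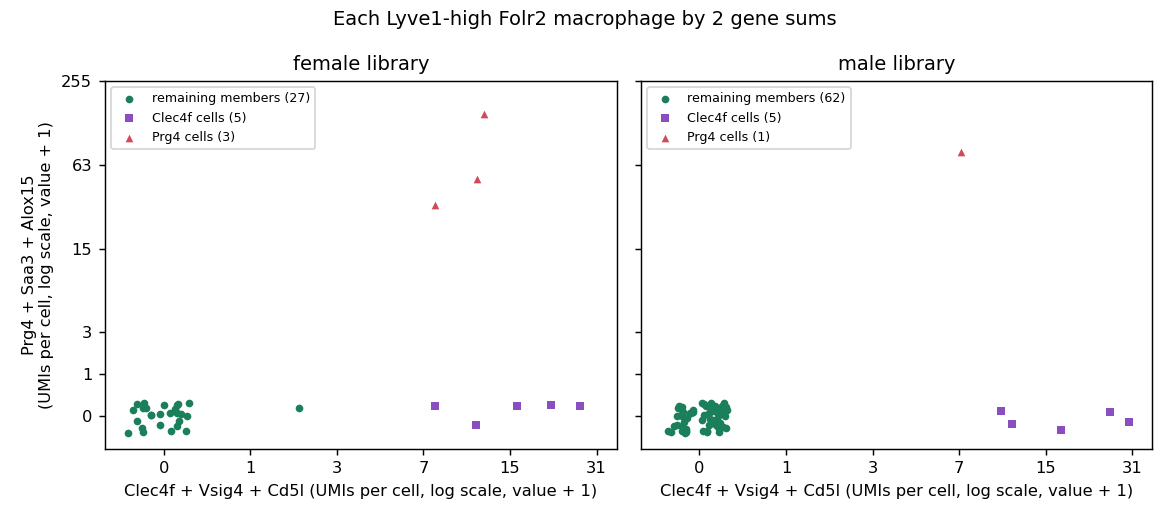
Each point is a member of the female (left) or male (right) library, placed by its UMIs over Clec4f, Vsig4 and Cd5l (x axis) and over Prg4, Saa3 and Alox15 (y axis), both on a log scale of value + 1 with jitter. The remaining members (27 and 62) sit at 0 on both axes but for 1 female cell, the Clec4f cells (5 and 5) lie to the right at 0 of the y axis, and the Prg4 cells (3 and 1) lie up on both axes.

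Leaving out the 14 cells took away part of the named genes. Of the 25 named higher, Alox15, Cd5l, Clec4f, Prg4, Saa3, Serpinb2 and Slpi were at 0 UMIs in both libraries, and Apoc1, Thbs1 and Vsig4 had at most 2 UMIs in a library. In the remaining members 437 genes (4.79%) were higher and 675 (7.40%) lower than in other C1q cells, the latter again an upper limit, and 14 of 16 genes of the resident list were higher. Maf, a transcription factor of resident macrophages, came in at 2.48-fold and 2.95-fold, and Vsig4 left, with 2 female and 0 male UMIs. F13a1 was 7.04-fold and 6.58-fold higher, Cd163 9.24-fold and 11.8-fold, and Pf4 5.97-fold and 7.24-fold. Stab1, a scavenger receptor of sinusoidal vessels and macrophages, was 2.52-fold and 2.34-fold higher. The ratio of C4b in the female library went from 37.0 to 9.42. The share of C1q cells was 2.85% in females and 6.90% in males, a difference of -4.06 points (-6.11 to -2.11).

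Timd4 (chr11:46810800-46844332, plus strand) depended on the split in females. The female members held 41 Timd4 UMIs in 13 cells, of which the 3 Prg4 cells held 22 and the Clec4f cells 6. The remaining female members held 13 UMIs in 7 of 27 cells, or 144 CPM, a ratio of 19.1 (9.22 to 37.5) to other C1q cells. The male members held 37 UMIs in 22 cells, and the remaining male members 28 in 18 of 62 cells, or 174 CPM, a ratio of 11.5 (6.96 to 18.8). After 1000 UMIs were drawn from each cell to set depth equal, 12.0% of remaining female members (3 of 25) and 14.8% of remaining male members (8 of 54) had a Timd4 UMI. The share was 1.17% and 2.35% in other C1q cells. These include the Retnla-high cells with a sum of 3 or more, at 6.25% and 19.4%, while cells with a smaller sum within the other limits stood at 1.01% and 0.171%. No Timd4 UMI was drawn in 555 female T cells, which allows a share of up to 0.541% (3 over the number of cells), nor in 250 male ones. T cells were deeper than members, with medians of 3932.5 and 3684.5 UMIs. Without the draw, 25.9% and 29.0% of the remaining members had one, against 2.74% and 3.73% of other C1q cells, so at least 1 Timd4 transcript was caught in a minority of them.

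Ccr2 had 28 UMIs in 6 remaining female members and 105 UMIs in 16 remaining male members. Among 1000 drawn UMIs, 16.0% and 20.4% of the remaining members had Ccr2, against 17.5% and 15.9% of other C1q cells and 11.9% and 8.40% of T cells. Without the draw the shares were 22.2% and 25.8%, 33.9% and 24.8%, and 27.4% and 25.2%. The intervals of the remaining members at equal depth, 4.54 to 36.1% and 10.6 to 33.5%, held the shares of the other C1q cells. Of the cells with Ccr2, 3 female and 3 male cells also had Timd4. In males the 16 cells with Ccr2 were deeper, with a median of 3417.5 UMIs against 1812.5, and stood at 13418 CPM of H2-Aa against 5607 in the 46 without. They stood at 1186 CPM of F13a1 against 1831. In females the 6 cells with Ccr2 stood at 10028 CPM of H2-Aa against 6104. The male cells with Timd4 stood at 2633 CPM of F13a1 against 1182 in those without, and the female ones at 806 against 1187, so the order of F13a1 was not shared. The groups of these splits hold 6 to 46 cells of 1 library each and were not tested.

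With the 14 cells left out, C1q cells were also grouped by their sum of the 4 genes. Pf4 went from 309 CPM at a sum of 0 to 592 at 1, 926 at 2, 1141 at 3 to 5, 2275 at 6 to 10 and 2789 above 10 in the female library. In the male library it went from 316 through 738, 1679, 2243 and 3985 to 4085. The cells at 2, left out by the rule, thus already stood above those at 0 in both libraries. Cx3cr1 fell over the same steps, from 822 to 201 CPM in females and from 892 to 61.3 in males. Timd4 had 0 UMIs at 3 to 5 in both libraries and 2 and 0 UMIs at a sum of 2, and stood at 325 and 141 CPM at 6 to 10 and 115 and 245 above 10. Cd209f stood at 776 and 822 CPM above 10 and at 72.2 and 353 at 6 to 10, but the female value above 10 came from 27 UMIs in 2 of 8 cells. Each step holds 7 to 27 member cells, and depth entered the sum as well.

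**Figure D4:**
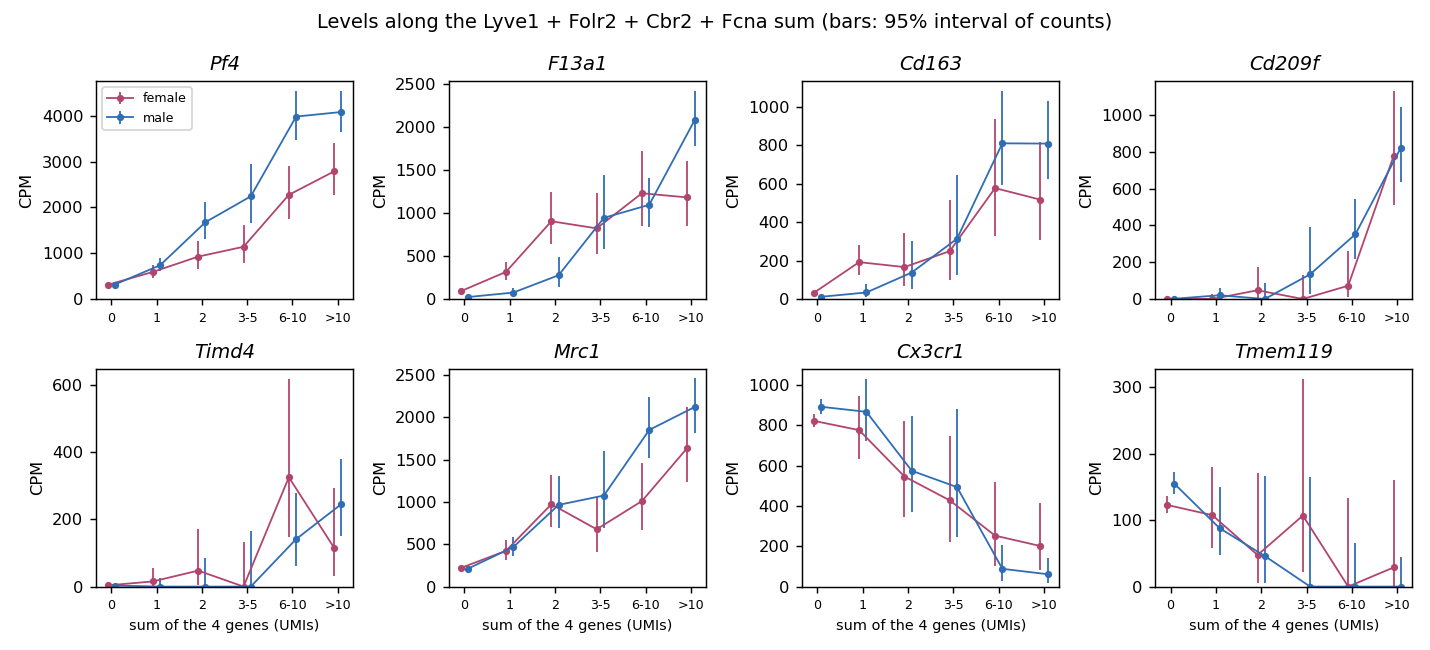
CPM (y axes, from 0) of 8 genes outside the rule in C1q cells grouped by their UMIs over Lyve1, Folr2, Cbr2 and Fcna (x axes), for the female and male libraries, with the 14 Prg4 and Clec4f cells left out and bars giving 95% counting intervals. Pf4, F13a1, Cd163, Cd209f and Mrc1 are higher on the right, and Cx3cr1 falls from 822 and 892 CPM to 201 and 61.3.

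MHC class II was counted as the UMIs of Cd74, H2-Eb1, H2-Ab1 and H2-Aa among 1000 drawn from each cell, so 2 female and 8 male remaining members with fewer UMIs were left out. The remaining female members had a median of 41 (quartiles 2 and 61, n = 25) and the male ones of 24 (12.25 and 50.75, n = 54). Other C1q cells had 29 and 47.5. Cells at 10 or fewer, called low here, were 32.0% of the remaining female members (14.9 to 53.5%) and 24.1% of the male ones (13.5 to 37.6%). In other C1q cells they were 28.1% and 9.53%. The share of low cells was thus 14.5 points higher in male members (4.82 to 27.6), while in female members the difference of 3.88 points had an interval from -11.2 to 23.7. With 500 UMIs drawn, which left out no cell, and a limit of 5, the low shares were 37.0% and 33.9% of remaining members and 28.8% and 10.5% of other C1q cells. Of the Retnla-high cells with a sum of 3 or more, 18.8% of female and 26.4% of male cells were low as well. The 4 Prg4 cells were all low, with 0.170 to 0.465 MHC class II UMIs per 1000, and so were 9 of 10 Clec4f cells. With them, 43.3% of female and 30.0% of male members were low. In males the cut runs through a continuous range, and 8 remaining members lay above 5 and up to 15. In females 1 remaining member lay there, and the values on either side of the cut were 6 and 19.

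**Figure D5:**
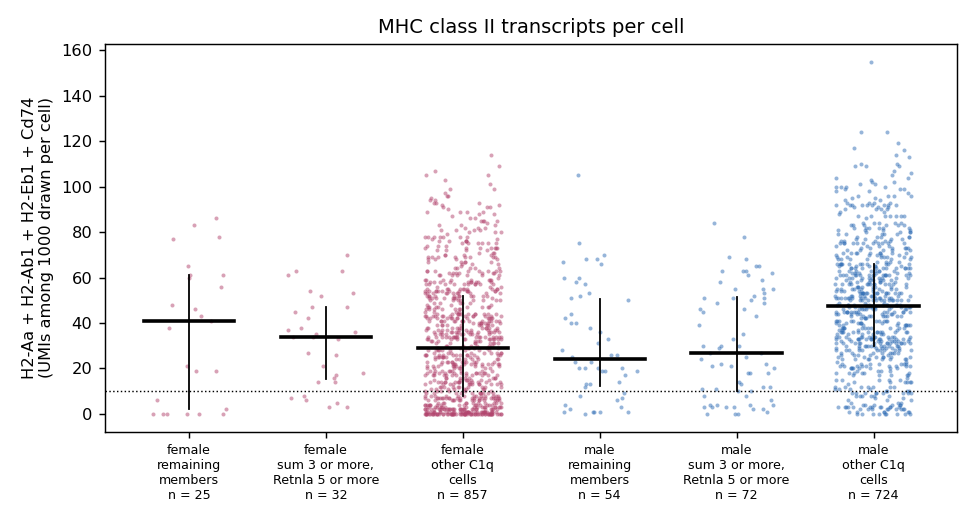
MHC class II UMIs (Cd74, H2-Eb1, H2-Ab1 and H2-Aa) among 1000 drawn per cell (y axis) in remaining members, cells with a sum of 3 or more and Retnla of 5 or more, and all other C1q cells, which include the second group, by library. Points are cells, thick bars medians and thin bars quartiles, and the dotted line marks 10, at or below which 8 of 25 female and 13 of 54 male remaining members fall.

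Few genes passed 2-fold in both libraries between the remaining members and the Retnla-high cells held to the same sum limit. This comparison was added after the data had been seen. Of 1568 genes with enough UMIs, 8 (0.510%) were at least 2-fold higher in the remaining members in both libraries and 18 (1.15%) at least 2-fold lower. Fewer cells entered here, so fewer genes could be counted, and these shares cannot be set beside those against other C1q cells. Cd163 (ratios 0.803 and 1.08), Mrc1 (0.815 and 1.02), Selenop (0.806 and 0.921) and Timd4 (1.09 and 0.936) were about level. Cd209f (0.559 and 0.592), Cd209d (0.147 and 0.619) and Ccl24 (0.732 and 0.726) had ratios below 1 but did not pass 2-fold in both libraries. They were given above as higher in members than in other C1q cells. Ranked by their intervals, S100a4 (0.196 and 0.273), S100a6 (0.297 and 0.324), Ccl6 (0.425 and 0.452), Cd209g (0.367 and 0.439), Ednrb (0.227 and 0.390), Lyz1 and Fn1 were lower in the members. Fn1 had 1 UMI in all remaining members. Cd68 (2.72 and 2.45), Clec12a (2.94 and 2.57) and Slamf9 (2.56 and 3.96) were higher. The shares of these Retnla-high cells, 3.69% and 8.57% of C1q cells, were apart by -4.89 points between females and males (-7.14 to -2.72), so the lower female share was not particular to the members.

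Between the sexes, 1644 genes had at least 30 UMIs over the members, with sex-linked genes left out. Of these 51 (3.10%) were at least 2-fold higher in female members and 94 (5.72%) at least 2-fold lower. Both counts were far smaller without doublet-like barcodes or with a higher UMI limit, as given in the last section. Fewer genes could be counted there, so the smaller counts do not show a smaller share. The genes ranked highest in females were Prg4, Saa3, Alox15, Tgfb2, Apoc2, Gda, Ssh2 and Gm26917, and the first 4 came from the 3 female and 1 male Prg4 cells alone. Apoc2, an apolipoprotein that activates lipoprotein lipase, had 37 UMIs in 9 female members and 8 in 4 male members, at 311 and 42.3 CPM. It was also 3.14-fold higher in female than male other C1q cells, and 81.1% of its female UMIs sat in 3 cells. Ssh2, a cofilin phosphatase, was spread over 17 female and 15 male members, at 311 and 84.5 CPM, a ratio of 3.68 (2.00 to 7.08).

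The genes ranked lowest in females were Igfbp4, Cd209b, Cd209d, Sulf2, Hif1a, Batf3, Tuba1c and Mmp12. Igfbp4, which binds insulin-like growth factors, stood at 286 CPM in female members (34 UMIs in 15 cells) and 824 in male members (156 UMIs in 50 cells), a ratio of 0.347 (0.232 to 0.505). In other C1q cells the ratio was 0.366, so the difference was not confined to the members. Sulf2, a sulfatase of heparan sulfate, had 5 UMIs in 3 female and 43 in 28 male members, a ratio of 0.185 (0.0572 to 0.466) against 0.663 in other C1q cells. Cd209b had 6 and 46 UMIs, a ratio of 0.207, and 0.0836 in other C1q cells. Mmp12 rested on 31 of 32 male UMIs in 1 Clec4f cell, and without the 14 cells its ratio was 5.32 in place of 0.149. In the remaining members Lyve1, Folr2, Cd163, Mrc1 and Pf4 of females stood at 0.582, 0.625, 0.611, 0.611 and 0.559 of the male level. None of these passed 2-fold, so none was called. Selenop stood at 0.654 and Maf at 0.698. Lyve1 and Folr2 belong to the rule, and for none of these genes can the sex and the library be told apart.

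UMIs of genes typical of other cells were present in the members. The summed adrenal steroid and catecholamine genes stood at 336 CPM in female and 539 in male members against 217 and 196 in other C1q cells. Without the 14 cells they were 199 and 617. Of the 11 genes on that list, 3 were at 0 in female and 4 in male members, and the median cell had 0 UMIs of them. Of 6 measured genes on it, 1 (Akr1b7) was higher in members and 0 were lower. B cell genes stood at 302 and 613 CPM against 1751 and 334, where only the members had to lack Cd79a. The 5 further T cell genes had 24 UMIs in 2 of the 27 remaining female members and 3 UMIs in the 62 male ones. The lymphatic markers Prox1, Flt4, Pdpn, Ccl21a and Reln had no UMI in the remaining members, but Pdpn and Ccl21a had none in any male cell either, so these zeros carry little. Immediate early genes, which rise when tissue is digested, stood at 2646 and 3290 CPM in members against 1398 and 1690, and at 1679 and 3240 without the 14 cells. The part of free RNA, digestion and the higher mitochondrial share in these results was not tested.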

How the data were processed

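Single-cell RNA was captured with 10x Genomics 3′ chemistry from CD45+ adrenal cells, 1 library per sex. The deposited values were raw UMI counts per gene and cell that the authors made with Cell Ranger (4.0.0 in the file headers) on mm10, and barcodes had been filtered by rank before deposit. The annotation release is not given in the sources used here. Rows that shared a symbol (40 symbols with 2 identifiers) were summed, and no per-sample column was left unused.

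Barcodes with at least 200 genes and at most 15% mitochondrial UMIs were kept. A mitochondrial ceiling of 1.2%, which the methods state, left 333 female and 366 male barcodes here, far fewer than the cells the study kept, so it may be on another scale in the study. It was run as an alternative and is not taken as the study's filter. The members and all gene lists were chosen with earlier results of these data known. UMIs were summed per class and library and given as CPM. A gene was called higher or lower when its ratio passed 2-fold in both libraries, or between the sexes, and genes needed 20 UMIs per library over C1q cells, or 30 over members. With 1 library per sex no test was possible. Shares carry exact Clopper-Pearson intervals, CPM exact Poisson intervals, ratios conditional binomial intervals and differences Newcombe intervals, all covering counting error only. The 25 genes named higher and 15 named lower were those with the highest and lowest interval bounds in the weaker library, and 8 per direction were named between sexes. For shares of cells and MHC class II, 1000 UMIs were drawn from each cell, and shallower cells were left out. Doublets were handled by the Cd79a and Cd3e limits and by an alternative, without a caller. The calculations used Python 3.11.15, numpy 2.4.6, scipy 1.17.1 and matplotlib 3.10.9, and were tested on simulated data. A result on 1 gene is not reported here.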

Additional observations from a re-analysis of the deposited data

Results flagged for a closer look

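The 3 genes flagged here had members on opposite sides of the other C1q cells in the 2 libraries. They are not all such genes: the 1 measured gene of a dendritic cell list had ratios of 0.365 in females and 2.95 in males. Female members held 1 UMI of that whole list. The differences were not tested since each sex is 1 library. Batf3, a transcription factor of dendritic cells, had a ratio of members to other C1q cells of 0.234 in the female library (2 UMIs in 2 cells) and 1.58 in the male library (29 UMIs in 20 cells). Hif1a, the oxygen-sensing factor, had ratios of 0.303 (3 UMIs in 2 cells) and 2.12 (34 UMIs in 25 cells). Ighm, the heavy chain of IgM, had ratios of 0.171 and 1.95, from 34 UMIs in 21 cells and 103 UMIs in 45 cells, while its level in other C1q cells was 1671 CPM in the female and 280 in the male library. Members had to lack Cd79a and the other C1q cells did not, and against cells with a smaller sum held to the same limits the Ighm ratios were 1.12 and 2.25, so the opposite sides were not kept for Ighm. For Batf3 they were 0.230 and 1.69, and for Hif1a 0.339 and 2.38.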

How the results depend on the processing

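No paired analysis was possible because each sex was 1 library and no result came from a test, and for the same reason no replicate could be left out. The female minus male share of members was -1.28 points without doublet-like barcodes and 1.75 points under the 1.2% ceiling, where 1 of 57 against 0 of 83 cells (interval -2.90 to 9.29) gives no direction and gene levels were not computed. Requiring 50 UMIs gave 266 genes higher and 313 lower than in other C1q cells, and the mean of per-cell CPM gave 912 lower. Between the sexes, the counts higher and lower in female members were 27 and 59 under the 5% mitochondrial ceiling, 15 and 25 without doublet-like barcodes and 17 and 19 with 60 UMIs. The count higher in females was 29 with a sum of at least 5 and 81 with per-cell CPM. Fewer genes reached the UMI limit with fewer members or under a higher limit, so smaller counts here do not show smaller shares. Under the 5% ceiling 63.6% of female members were MHC class II low. Of 921 alternative values of single genes, 706 stayed within their interval, 172 moved and 43 changed direction. Ratios of members to other C1q cells fell to 0 in both libraries for Alox15, Cd5l, Clec4f, Prg4, Saa3, Serpinb2 and Slpi without the Prg4 and Clec4f cells, an alternative chosen after seeing the data, where Apoc1 was 0 in females and 0.745 in males and Thbs1 0 and 0.668. Without doublet-like barcodes Alox15, Prg4, Slpi and Thbs1 were 0 in both libraries, Saa3 0 in males and Serpinb2 0 in females. In the same setting Apoc1 was at 0.898 and Ccl5 at 1.23 in females, and Gzma at 8.08 in males. Gzma is among the genes that define such barcodes, so its value is not read. With a sum of at least 5, Alox15, Prg4, Saa3, Serpinb2, Slpi and Thbs1 were 0 in females, the female to male ratios of Alox15, Prg4, Saa3 and Tgfb2 were 0 and that of Mmp12 was 7.14. Without the 14 cells the ratio of Mmp12 was 5.32. The cause was not tested where not given by the cells left out. With comparison cells held to the same Retnla, Cd79a and Cd3e limits, 29 gene values moved and 49 did not. With 27 to 68 cells per class, genes of few UMIs set the limit. Vsig4 in males, with 0 UMIs in the comparison cells, has no ratio and was not included.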
